A study of Homo sapiens with 15 samples.

Results

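MPP8 peaks were examined at the zinc finger genes of the far long arm of chromosome 19, the stretch that runs from 46 Mb to the end of the annotated genes. The genes were chosen as the RefSeq protein-coding genes whose symbol is ZNF followed by a number, with or without a closing letter, and whose lower coordinate is at or above 46000000 on hg38. There were 101 of them among 20037 protein-coding genes. For each gene, peaks were counted that overlapped its body or the 1 kb beyond either end by 1 bp or more.

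Most genes with ZNF symbols on chromosome 19 encode C2H2 zinc finger proteins, and many of these carry a KRAB domain, which recruits the corepressor TRIM28 and the H3K9 methyltransferase SETDB1 to DNA, often to transposable elements. The genes arose by tandem duplication and lie next to near relatives, and the array of fingers is usually encoded in a single long last exon. MPP8 is a chromodomain protein that binds methylated H3K9 and belongs to HUSH, a complex that silences LINE-1 elements. Chromatin with H3K9 methylation over the far ends of zinc finger genes is well known from K-562 and other cells, and 1 of the genes here, ZNF274, encodes a protein known to bind there and to recruit SETDB1.

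The cells were K-562, an established human line derived from a patient's chronic myeloid leukaemia. One library came from cells with TASOR, the scaffold of HUSH, knocked out (TASOR KO), and 1 from cells with its paralog TASOR2 knocked out (TASOR2 KO). Both were precipitated with the same antibody to MPP8, and mouse chromatin had been added to each as a spike-in. The knockouts were made with CRISPR/Cas9 and grown from single sorted cells, so that each is a clonal population and differences between clones cannot be told apart from those between genotypes. The labels also describe lentiviral transduction with an empty resistance vector or a tagged transgene, without saying whether these samples had the empty vector. The other 13 samples of the series, unedited cells and input chromatin among them, were not used here.

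Each genotype was measured in a single library, so the spread between replicates is unknown and no p-value was computed. Intervals are exact (Clopper-Pearson) binomial 95% intervals, cover counting error only, and treat neighbouring genes as independent although some share a peak. The lists held 427 TASOR KO and 264 TASOR2 KO peaks, of which 138 and 79 had a q, as deposited by the authors, of 0.05 or less. The largest q was 0.460 and 0.258, and the caller's threshold is not given. The limit of 0.05 is therefore used to grade the deposited peaks, and is not read as the false discovery rate of each peak. Read numbers are not part of the peak lists, and the depth behind each peak is therefore unknown. Fold enrichment and −log10 q are the authors' values per peak, and ranks run from the highest −log10 q within a list and are not compared between lists.

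The promoters of 5 of these genes are shown first, since only TASOR KO peaks met gene starts, and those of a few genes. Of the 87 genes with a known strand, 9 had a TASOR KO peak within 1 kb of the start and 0 a TASOR2 KO peak. Each run is 300 bases from RefSeq (GRCh38.p14), 5′ to 3′ on the strand of the gene, from 250 bases before an annotated start to 50 after it. Capitals mark CCGGAAG, the core of sites bound by ETS factors and a common element of active promoters, or its reverse complement. ZNF578 (chr19:52453303-52453602, plus strand), ZNF528 (chr19:52397599-52397898, plus strand) and ZNF880 (chr19:52369673-52369972, plus strand, at a start inside the gene) lie under the strongest TASOR KO peaks among these genes. ZNF808 (chr19:52527418-52527717, plus strand) lies at a narrow peak, and ZNF350 (chr19:51986791-51987090, minus strand) is the promoter under a TASOR KO peak that has no such match.
ZNF578: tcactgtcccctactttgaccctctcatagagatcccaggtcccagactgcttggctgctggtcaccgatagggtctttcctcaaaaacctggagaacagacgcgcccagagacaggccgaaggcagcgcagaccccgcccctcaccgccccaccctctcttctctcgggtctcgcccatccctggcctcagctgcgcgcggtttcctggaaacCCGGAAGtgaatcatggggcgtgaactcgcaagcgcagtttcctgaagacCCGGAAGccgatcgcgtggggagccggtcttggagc
ZNF528: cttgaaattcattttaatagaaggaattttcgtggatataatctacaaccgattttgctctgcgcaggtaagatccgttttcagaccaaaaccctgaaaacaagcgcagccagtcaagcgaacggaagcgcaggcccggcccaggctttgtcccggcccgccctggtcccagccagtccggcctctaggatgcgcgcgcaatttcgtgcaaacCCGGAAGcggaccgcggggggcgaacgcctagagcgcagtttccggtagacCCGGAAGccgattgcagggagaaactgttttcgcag
ZNF880: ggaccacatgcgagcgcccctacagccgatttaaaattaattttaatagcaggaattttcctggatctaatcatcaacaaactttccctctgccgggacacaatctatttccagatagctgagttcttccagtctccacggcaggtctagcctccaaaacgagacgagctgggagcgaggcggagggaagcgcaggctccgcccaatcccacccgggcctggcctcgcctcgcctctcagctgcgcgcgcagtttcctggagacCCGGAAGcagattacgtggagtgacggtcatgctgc
ZNF808: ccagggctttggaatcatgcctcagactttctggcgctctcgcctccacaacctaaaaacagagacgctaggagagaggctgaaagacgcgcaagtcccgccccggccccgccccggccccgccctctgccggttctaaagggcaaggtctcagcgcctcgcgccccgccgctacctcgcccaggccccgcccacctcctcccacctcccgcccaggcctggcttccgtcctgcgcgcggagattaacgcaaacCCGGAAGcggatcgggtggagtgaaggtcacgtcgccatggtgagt
ZNF350: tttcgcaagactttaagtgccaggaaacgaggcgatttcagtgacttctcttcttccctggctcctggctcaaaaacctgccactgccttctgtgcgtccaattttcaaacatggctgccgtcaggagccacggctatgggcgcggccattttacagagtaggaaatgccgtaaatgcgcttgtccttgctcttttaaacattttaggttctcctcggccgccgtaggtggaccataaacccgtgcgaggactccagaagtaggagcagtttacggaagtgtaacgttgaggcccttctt

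The promoter table held 87 of the 101 genes. Counting the first transcribed base as 1, the match began at base 15 in ZNF880, ZNF528 and ZNF578 and at base 5 in ZNF808, on the strand of the gene, and ZNF528 and ZNF578 had a further match that began 37 and 36 bases before the start. On either strand, CCGGAAG was found in 53 of the 87 promoters (60.9%), in 14.2% of 15842 protein-coding gene promoters of the same length, in 34.1% of 129 promoters of the other ZNF genes on chromosome 19 and in 33.2% of 214 promoters of ZNF genes on other chromosomes. The longer ACCCGGAAG, which contains the first motif and was chosen after reading these sequences, was found in 19 of the 87 (21.8%) and in 1.59% of protein-coding promoters. It was in 16 of the 32 promoters (50%) of the genes from ZNF175 to ZNF331, against 3 of 40 (7.50%) from ZNF264 to ZNF446 and 0 of 14 from ZNF628 to ZNF835.

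Within the ZNF175 to ZNF331 group, ACCCGGAAG was in 6 of the 9 promoters of genes with a TASOR KO peak, in 7 of the 13 of genes with a TASOR2 KO peak, and in 4 of the 12 of genes with neither. The first count is not independent of the choice of motif. ACCCGGAAG was read from promoters printed because they lie under TASOR KO peaks, and ZNF578, ZNF528, ZNF880 and ZNF808 are among the 6. These are counts of letters in neighbouring relatives, and no test of a link to MPP8 was made. TATAAA was in 1 of the 87 promoters (1.15%), against 9.75% of protein-coding promoters. The promoters had a median of 24 CpG dinucleotides (quartiles 20 and 29) and 62.3% G and C, where all protein-coding promoters had 22 and 62.7%. The median CpG number was 25 with a peak of either list and 23 without.

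Zinc finger genes of distal 19q carried MPP8 peaks in both knockouts, and among the deposited peaks more of them did so in the TASOR2 KO list. In TASOR KO cells 15 of the 101 genes had a peak (14.9%, interval 8.56 to 23.3), where 1.12% of all protein-coding genes had one. In TASOR2 KO cells 26 had a peak (25.7%, 17.6 to 35.4), where 0.893% of all did. A peak of either list was found at 35 genes (34.7%, 25.5 to 44.8; 1.85% of all), and 66 had none. At a q of 0.05 or less the counts were 6 and 8. These genes held 28 of the 264 deposited TASOR2 KO peaks (10.6%) and 16 of the 427 deposited TASOR KO peaks (3.75%). Each list is a part of a longer numbered one: the TASOR KO peaks hold 427 of the 11786 numbers from their first to their last (3.62%) and the TASOR2 KO peaks 264 of 1512 (17.5%), and how the deposited peaks were chosen is not given. In the stretch itself the TASOR KO list holds 18 of 72 consecutive numbers (25%) and the TASOR2 KO list 30 of 32 (93.8%). By these raw counts the longer lists stand in the reverse order, 72 against 32. They count calls rather than genes with a peak, and come from longer lists of unlike length, 11786 and 1512 numbers. Every comparison of the lists here is therefore one of the deposited peaks only.

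**Figure D1:**
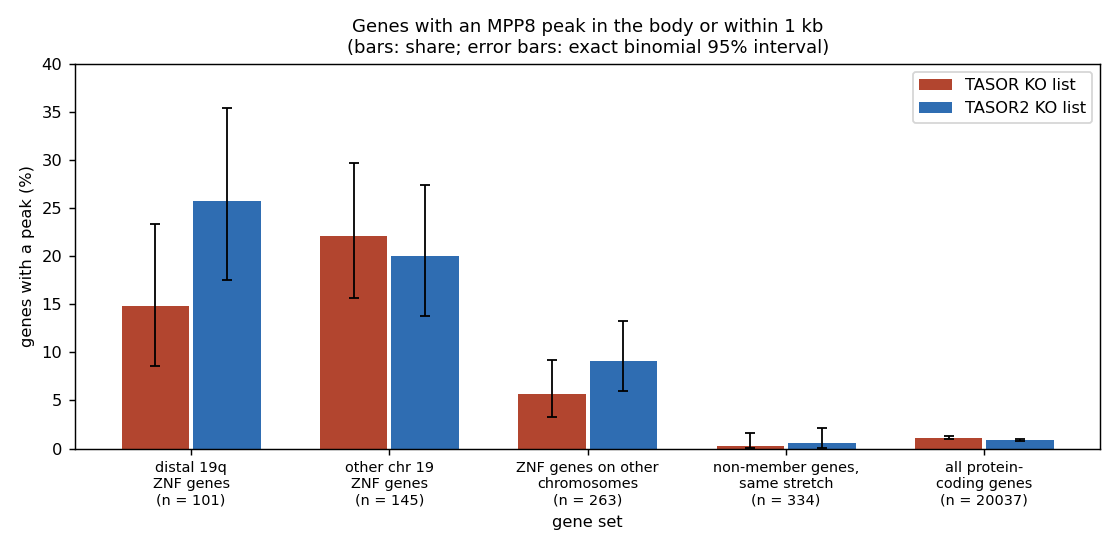
Share of genes (vertical axis, percent) with an MPP8 peak in the body or within 1 kb, for 5 gene sets (horizontal axis) in the TASOR KO and TASOR2 KO lists. Bars are shares and error bars exact binomial 95% intervals; the distal 19q ZNF genes stand at 14.9% and 25.7%, the other genes of the same stretch at 0.299% and 0.599%, and all protein-coding genes at 1.12% and 0.893%.

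The genes that lie between and around these zinc finger genes had peaks at about the share of all protein-coding genes. Of 334 other protein-coding genes in the stretch, 1 had a TASOR KO peak (0.299%, 0.00758 to 1.66) and 2 a TASOR2 KO peak (0.599%, 0.0726 to 2.15), and the shares over all protein-coding genes, 1.12% and 0.893%, lie inside these intervals. These were FPR3, a formyl peptide receptor gene whose peak is the one at the end of ZNF577, and the readthrough genes ZNF816-ZNF321P and ZNF765-ZNF761, which contain genes of the set. Fixed groups of neighbours held 0 peaks of either list: 13 zinc finger genes with other names (ZSCAN, ZFP, ZIM, ZIK, ZBTB and PEG3), 11 SIGLEC, 15 KLK, 19 LILR, LAIR and KIR, 9 NLRP and 3 VN1R genes, and of 3 FPR genes only FPR3 had one. At the shares over all protein-coding genes, groups of this size would mostly hold none, so these counts do not set the neighbours apart. Of the peaks in the stretch, 16 of 18 in TASOR KO and 28 of 30 in TASOR2 KO lay at a ZNF gene of the set. The other 4 lay between 1724 and 7655 bp from the nearest of them.

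Gene length differs between these sets, with a median of 19014 bp here and 11626.5 bp among the other genes of the stretch, and a longer gene can meet more peaks. Per Mb of gene and flank, the distal 19q ZNF genes held 6.60 TASOR KO peaks and the other genes of the stretch 0.160, with 0.182 over all protein-coding genes. For TASOR2 KO the densities were 11.6, 0.480 and 0.136 peaks per Mb, and the 3 peaks behind the second value lie in the readthrough genes. The other 145 ZNF genes of chromosome 19 held 6.52 TASOR KO and 5.53 TASOR2 KO peaks per Mb, and 22.1% (15.6 to 29.7) and 20% (13.8 to 27.4) of them had a peak. The intervals of the distal and the other chromosome 19 ZNF genes overlap in both lists, so a difference between them was not shown.

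The peaks were not spread evenly along the chromosome. Joining genes 500 kb or less apart gave 6 groups, of which ZNF541, ZNF114 and ZNF473 stood alone and without a peak. From ZNF175 to ZNF331 (chr19:51571283-53580269), 25 of 39 genes had a peak of either list, 11 of TASOR KO (28.2%, 15.0 to 44.9) and 18 of TASOR2 KO (46.2%, 30.1 to 62.8). From ZNF628 to ZNF835 (chr19:55476617-56671757), ZNF583 alone of 16 genes had peaks, 1 of each list. From ZNF264 to ZNF446 (chr19:57191500-58489533), 3 of 43 genes had a TASOR KO peak (6.98%, 1.46 to 19.1) and 7 a TASOR2 KO peak (16.3%, 6.81 to 30.7). Of these 3 larger groups, the first also had the longest genes, with a median of 26278 bp against 11203.5 and 13139 bp, and the part of length in the difference was not tested.

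**Figure D2:**
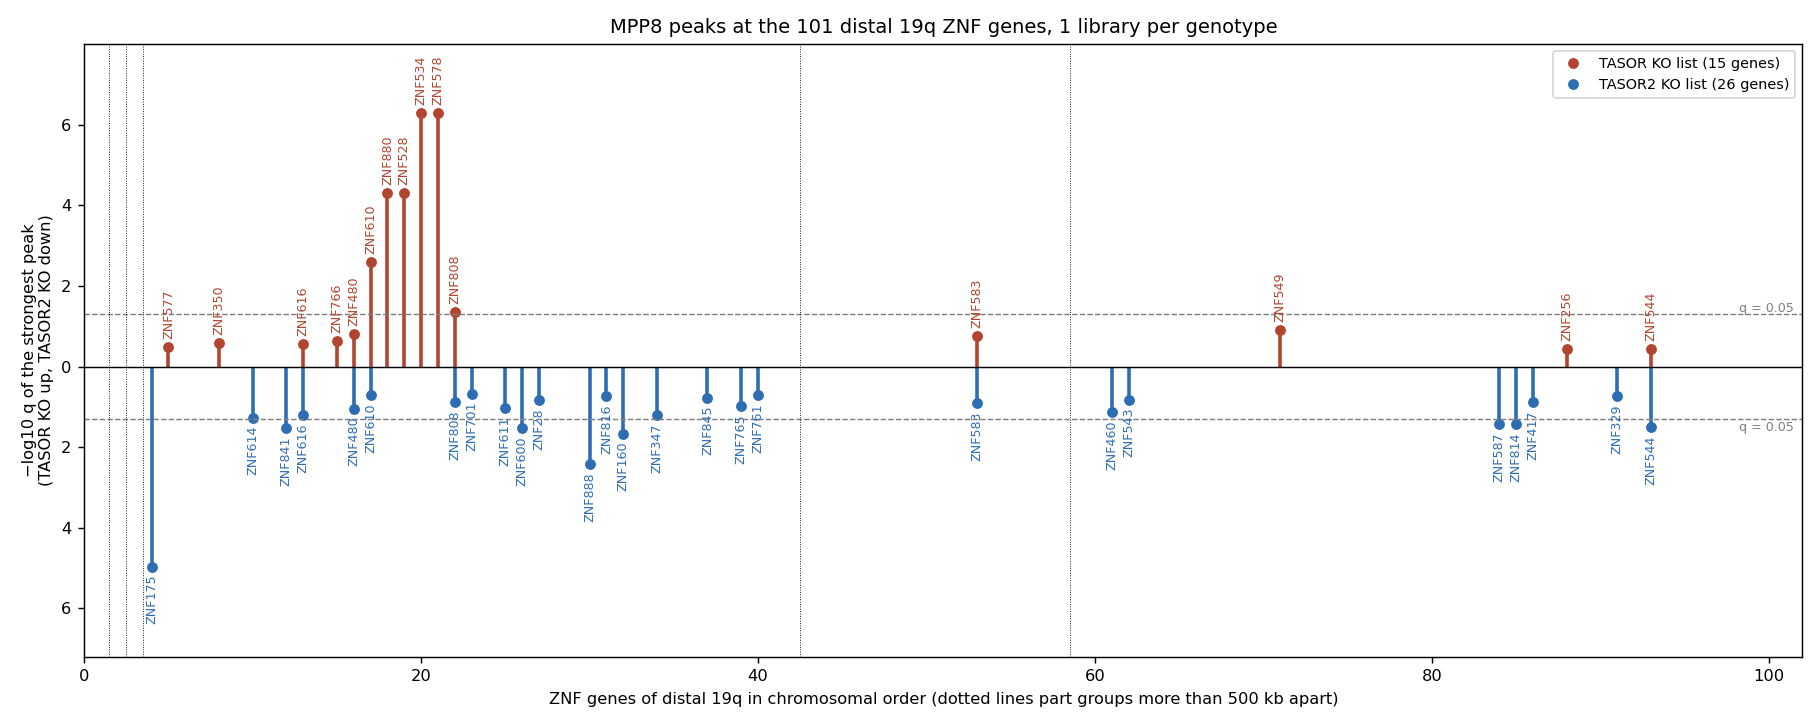
The 101 genes in chromosomal order (horizontal axis) with the −log10 q of their strongest peak (vertical axis), TASOR KO upwards and TASOR2 KO downwards; dashed lines mark q = 0.05 and dotted lines the gaps of more than 500 kb. TASOR KO peaks reach 6.28 at ZNF534 and ZNF578 and none is shown between ZNF808 and ZNF583, where TASOR2 KO peaks stand at 11 genes.

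Inside the ZNF175 to ZNF331 group the lists parted at the gene ZNF808, a boundary chosen after the positions were seen. ZNF808 encodes a repressor needed in pancreas development. From ZNF175 to ZNF808, 11 of 19 genes had a TASOR KO peak and 7 a TASOR2 KO peak. From ZNF701 to ZNF331, 0 of 20 genes had a TASOR KO peak and 11 of 20 (55%) a TASOR2 KO peak. ZNF808 is the last gene of the group with a TASOR KO peak, so the 0 follows from where the boundary was set. No interval is given for these counts. The 0 does not show that MPP8 was missing there. The TASOR KO peaks carry the numbers of a longer list, and between the peak at ZNF808 and the next deposited peak, at ZNF583, 9 numbers are skipped, so that 9 further calls may have lain between them. The TASOR2 KO list skips none in this interval.

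The strongest TASOR KO peaks were wide and lay across the junctions of genes that follow each other on the plus strand. The first, chr19:52445062-52462451, was 17390 bp wide with a fold of 5.80, a −log10 q of 6.28 and rank 8 of 427. It covered the last 7202 bp of ZNF534 (gene ID 147658, chr19:52429148-52452263) and the first 8899 bp of ZNF578 (gene ID 147660, chr19:52453553-52516882). The peak thus meets the transcript end of one gene and the start of the other, and they cannot be told apart by it.

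The next junction was covered in the same way. The peak chr19:52392047-52403249 was 11203 bp wide with a fold of 5.25, a −log10 q of 4.30 and rank 26. It held the end of ZNF880 (gene ID 400713, chr19:52366858-52397666) and the start of ZNF528 (gene ID 84436, chr19:52397849-52418401). A peak of 15143 bp, chr19:52359994-52375136, with a fold of 4.34, a −log10 q of 2.60 and rank 66, held the start of ZNF880 and the upper end of ZNF610. These 3 peaks met 5 neighbouring genes, and they were the only TASOR KO peaks over 10 kb at the 101 genes, of 10 in the list.

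The other TASOR KO peaks at these genes were narrower, and most had a q above 0.05. ZNF808 had a peak of 638 bp, chr19:52527058-52527695, with a fold of 3.74, a −log10 q of 1.35 and rank 131. These 4 peaks, at 6 genes, were the ones with a q of 0.05 or less, which 0.514% of all protein-coding genes had. The remaining 12 had a −log10 q between 0.425 and 0.901 and folds between 2.999 and 3.62, against a median fold of 3.35 over the whole list, and ranked between 187 and 380 of 427. They lay at ZNF350, which encodes a repressor that partners with BRCA1, at ZNF766, ZNF616, ZNF583, ZNF549, ZNF256 and ZNF544, at ZNF577 and ZNF480 with 2 each, and at ZNF578 with a further peak inside the gene.

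At ZNF350 the peak was 5753 bp wide and covered the first 3817 bp of the gene, with a fold of 3.26 and a −log10 q of 0.594. At ZNF766 a peak of 1528 bp spanned the start, with a fold of 3.12 and a −log10 q of 0.639. At ZNF583 and ZNF544 peaks of 534 and 512 bp stopped 454 and 350 bp before the gene, and without the 1 kb flank these genes are not counted. These peaks have in common that they meet the region of the start.

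TASOR2 KO peaks were narrower at their widest, 8149 bp. The strongest, which led the whole list, was chr19:51587413-51588664 in ZNF175 (gene ID 7728, chr19:51571283-51592510), which encodes a repressor studied for its action on HIV, with a fold of 6.01 and a −log10 q of 4.97. ZNF175 is the first gene of its group and had no TASOR KO peak. ZNF888 (gene ID 388559, chr19:52904415-52923428) followed with a peak at chr19:52905548-52906976, a fold of 4.89, a −log10 q of 2.42 and rank 11 of 264. ZNF160 (gene ID 90338, chr19:53066614-53103422), a repressor reported to act on TLR4, had a peak of 5761 bp over its transcript end, with a fold of 4.39, a −log10 q of 1.66 and rank 45.

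Beyond these 3, peaks with a q of 0.05 or less lay in ZNF600 (−log10 q 1.53, rank 55), ZNF841 (1.53, rank 56) and ZNF544 (1.51, rank 59), and between ZNF587 and ZNF814 (1.44, rank 66). In all 7 peaks at 8 genes passed, where 0.299% of all protein-coding genes had such a peak. ZNF587 (gene ID 84914, chr19:57849859-57865117) encodes a repressor of the endogenous retrovirus HERV-K. It points towards ZNF814 (gene ID 730051, chr19:57869381-57905128), and the 8149 bp peak chr19:57865544-57873692 lay 426 bp past the end of ZNF587 and over the last 4312 bp of ZNF814. ZNF587 had a further peak of 980 bp inside the gene with a −log10 q of 0.979. ZNF417, the near relative of ZNF587 that follows ZNF814, had a peak of 898 bp with a fold of 3.76 and a −log10 q of 0.886.

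The other TASOR2 KO peaks had a −log10 q between 0.622 and 1.27 and folds between 3.56 and 4.05. ZNF614, ZNF347 and ZNF616, at ranks 87, 100 and 103, led them. ZNF808, ZNF600, ZNF845 and ZNF587 each had 2 TASOR2 KO peaks. At ZNF845 the peaks were 2031 and 540 bp wide, with centres at 0.791 and 0.980 of the gene length. ZNF28 and ZNF600, whose annotations overlap, share a peak of 1114 bp.

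The lists differed in which part of the gene was occupied. Strand was taken from the promoter table, and the start and the transcript end are the outer annotated ends of the gene. Among the 13 genes with strand and a TASOR KO peak, the centre of the strongest peak was nearer the start in 9 (69.2%, 38.6 to 90.9), at a median of 0.860 kb from the start. Among the 20 with a TASOR2 KO peak it was nearer the start in 2 (10%, 1.23 to 31.7), ZNF765 and ZNF701, and the median distance was 19.9 kb from the start and 3.12 kb from the transcript end. On a scale from 0 at the start to 1 at the transcript end, the median position was 0.0263 (quartiles -0.00978 and 0.804) in TASOR KO and 0.853 (0.776 and 0.964) in TASOR2 KO.

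Counted by the 1 kb around either end, 12 of the 101 genes had a TASOR KO peak there (11.9%, 6.29 to 19.8; 0.679% of all protein-coding genes) and 9 a TASOR2 KO peak (8.91%, 4.16 to 16.2; 0.2%). Within 5 kb of an end the counts were 18 and 25 genes, where 18 and 28 had any peak with a flank of 5 kb. That window takes in nearly every gene with a peak and says little about ends. The share over all protein-coding genes was not computed for it. With the ends told apart, 9 of the 87 genes with strand had a TASOR KO peak at the start (10.3%, 4.84 to 18.7; 0.675% of all protein-coding genes with strand) and 3 at the transcript end (3.45%, 0.717 to 9.75; 0.0947%). In TASOR2 KO 0 of the 87 had a peak at the start (upper bound 4.15%; 0.0126%) and 8 at the transcript end (9.20%, 4.05 to 17.3; 0.202%). Of the 300 bp promoter windows, 7 of 87 met a TASOR KO peak and 0 a TASOR2 KO peak. Among 106 windows that include other annotated starts the counts were still 7 and 0. These are narrower windows on the same peaks and no separate support, and the share over all protein-coding promoters was not computed. Of the 3 TASOR KO peaks at a transcript end, those of ZNF880 and ZNF534 also held the start of the following gene, and that of ZNF577 did not. Besides, ZNF549 had its TASOR KO peak at 0.804 of its length.

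**Figure D3:**
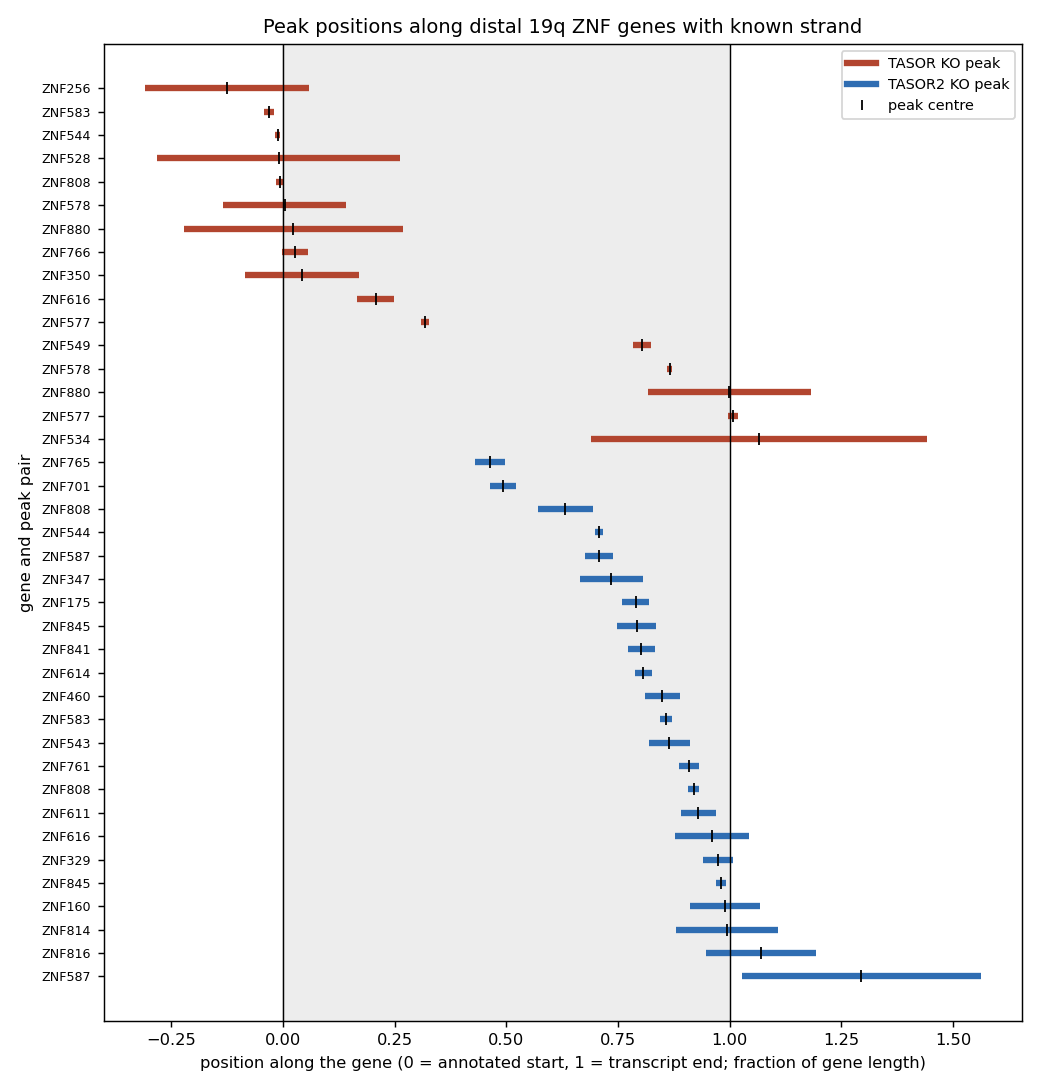
Each row is a gene and peak pair with known strand (vertical axis), and the horizontal axis is the position along the gene from 0 at the annotated start to 1 at the transcript end, in fractions of gene length; coloured bars span the peak and ticks mark its centre. Of 16 TASOR KO pairs 11 have the centre nearer the start, and of 23 TASOR2 KO pairs 21 have it nearer the transcript end.

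The same order of positions was seen outside distal 19q. Among the other ZNF genes of chromosome 19 the strongest TASOR KO peak was nearer the start in 19 of 29 genes and the TASOR2 KO peak nearer the transcript end in 26 of 28. Over all protein-coding genes the counts were 150 of 192 and 125 of 160. Exons were not in the gene table, so whether TASOR2 KO peaks met the exon that encodes the fingers was not tested.

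A peak of each list was found at 6 genes: ZNF616, ZNF480, ZNF610, ZNF808, ZNF583 and ZNF544 (5.94%, 2.21 to 12.5; 0.17% of all protein-coding genes). They were 40% of the 15 genes of the TASOR KO list and 23.1% of the 26 of the TASOR2 KO list. In none did the peaks overlap. In all 4 with strand, the TASOR KO peak lay upstream of the TASOR2 KO peaks within the gene. Overlap and order were not compared with those over all 34 protein-coding genes with a peak of both lists. Neither is therefore shown to be particular to these genes, and the positions over all protein-coding genes had the same order. In ZNF808 the TASOR KO peak lay at the start (-0.00710 of the gene length) and the TASOR2 KO peaks, with −log10 q 0.891 and 0.622, at 0.632 and 0.919. In ZNF544 the positions were -0.0125 and 0.707, in ZNF583 -0.0309 and 0.858, and in ZNF616 0.208 and 0.960.

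For ZNF480 and ZNF610 no strand was used. In ZNF480 (gene ID 147657, chr19:52297169-52325922) the TASOR KO peaks lay below the TASOR2 KO peak, and the nearer of them, chr19:52318783-52322362, stopped 204 bp before it. In ZNF610 (gene ID 162963, chr19:52330221-52367778) the order was the reverse, with 25109 bp between the peaks. None of the 6 genes had a peak with a q of 0.05 or less in both lists. Whether both lists were called against one control was not tested.

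Genes with a peak were longer than those without. The median length was 26278 bp (quartiles 19783.5 and 33990) for the 35 genes with a peak of either list and 15861.5 bp (10491.5 and 22668.5) for the 66 without. Of the 34 longest genes, 24226 to 83510 bp, 9 had a TASOR KO peak (26.5%, 12.9 to 44.4) and 15 a TASOR2 KO peak (44.1%, 27.2 to 62.1). Of the 34 shortest, 2469 to 13497 bp, 1 and 3 had one (2.94%, 0.0744 to 15.3, and 8.82%, 1.86 to 23.7). Over all protein-coding genes of any length the shares were 1.12% and 0.893%, and shares for those of like length were not computed. A longer gene can meet more peaks, so the relation to length is not shown to be particular to these genes. Within the ZNF175 to ZNF331 group the medians were 26848 bp with a peak and 20248 bp without.

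**Figure D4:**
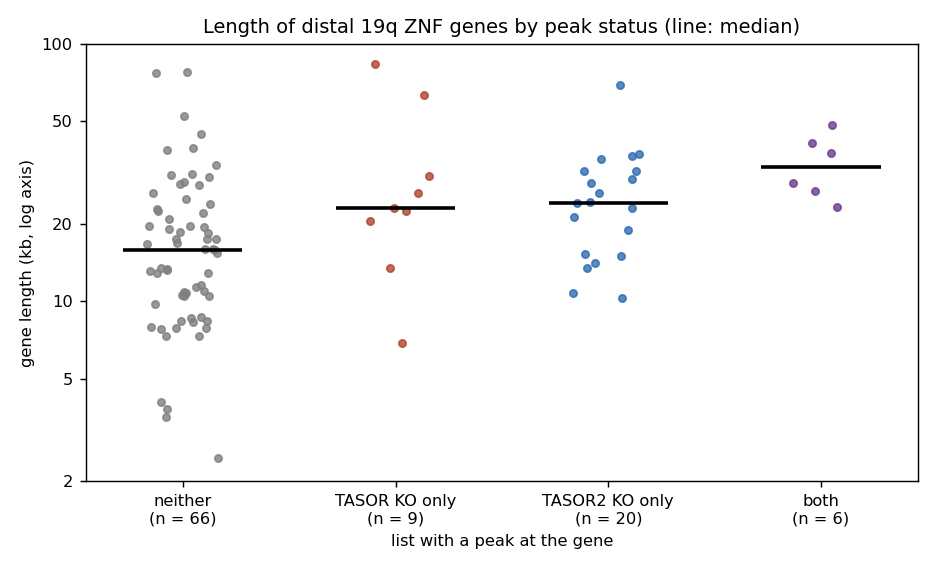
Gene length in kb (vertical log axis) of the 101 genes by the list that had a peak at them (horizontal axis); points are genes and lines medians. The 66 genes with neither have a median of 15861.5 bp, and the 6 with both lie between 23351 and 48542 bp.

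Long genes without a peak were also found. The longest were ZNF83 (gene ID 55769, 78120 bp), ZNF331 (gene ID 55422, 77035 bp), an imprinted gene, and ZNF541 (gene ID 84215, 52620 bp). ZNF83 lies between ZNF701 and ZNF611, which both had a TASOR2 KO peak, and a TASOR2 KO peak of 4313 bp lay 3351 bp from ZNF83 itself, outside the 1 kb flank. ZNF274, chosen after its values were seen, had 0 peaks of either list. Of the HUSH list of 8 genes, which includes TRIM28 of this stretch, 1 (TASOR2) had a TASOR KO peak and 0 a TASOR2 KO peak. With 1.12% and 0.893% of all protein-coding genes called, 8 genes are too few to read these counts against that share.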

How the data were processed

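MPP8 ChIP-seq peak lists of 2 of the 15 samples were used, grouped by their titles. Per the labels' protocols, fixation took 10 min in 1% formaldehyde, micrococcal nuclease and sonication fragmented the chromatin, 80 µg of it received 1 part in 40 of mouse chromatin, and libraries were amplified with 13 cycles. The submitters' processing notes name the tools MACS2, deepTools and Bowtie2 (version 2.3.5.1) and the builds hg38 and mm9. Neither control nor thresholds are named there. No header comes with the deposited lists. Read by the column order that MACS2 uses for broad peaks, they give the authors' score, fold enrichment (a ratio), −log10 q and −log10 p. Each list names 1 library, but whether other samples entered the calling or the choice of the deposited peaks is not given. The peak numbers show that each list is part of a longer one. How reads that fit several related ZNF genes were placed is not given.

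Gene positions and promoters came from RefSeq tables (GRCh38.p14), coordinates are 1-based, and 20037 protein-coding genes were counted. Of the 101 genes, 14 had no entry in the promoter table, the source of strand: ZNF114, ZNF473, ZNF649, ZNF480, ZNF610, ZNF600, ZNF28, ZNF888, ZNF665, ZNF524, ZNF471, ZNF211, ZNF552 and ZNF417. Where a gene had several starts, the one nearest its outer end was used, and it matched that end in 73 of 87. The planned counts of fingers in the proteins were not analysed here. The genes, gene lists and rules were chosen with earlier results of these data known. Genes were named if they were in the definition of the set, had a peak of both lists, were at the 10 strongest peaks of a list here, had 2 or more peaks of a list, were the longest 3 without a peak, or made up a count of 5 or fewer. ZNF256, ZNF417, ZNF28 and ZNF611 fall outside this rule and were named after their values were seen, and other genes are named as the ends of groups. The overlap and position steps were tested on simulated data, where all 200 planted genes were recovered. Alternatives were the flank, the q threshold, the higher-scoring part of each list, the peak centre, and the start of the stretch. Versions were scipy 1.17.1, numpy 2.4.6, matplotlib 3.10.9 and pandas 2.3.3 under Python 3.11.15.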

Additional observations from a re-analysis of the deposited data

How the results depend on the processing

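Of 31 alternative values over 7 results, 19 stayed within 1.5 times the count, or within the interval of the share, and 12 did not. With peaks at a q of 0.05 or less, the genes with a TASOR KO peak fell from 15 to 6, with a TASOR2 KO peak from 26 to 8, with both from 6 to 0, with a TASOR KO peak at a gene end from 12 to 6 and with a TASOR2 KO peak at a gene end from 9 to 3. With the higher-scoring part of each list (213 and 132 peaks) the same counts were 8, 12, 0, 6 and 4. A flank of 5 kb raised the genes with a TASOR2 KO peak at an end from 9 to 25. Those with a TASOR KO peak at an end went from 12 to 18. The order of the lists turned, but at that flank 28 and 18 genes had any peak, so nearly all were counted at an end. With peaks at a q of 0.05 or less, chosen as an alternative after seeing the data, the share of genes whose TASOR2 KO peak was nearer the start went from 10% to 0% of 6. For TASOR KO the same limit left 3 of 5 genes nearer the start (60%, 14.7 to 94.7), against 69.2% without it. The other 2 had the peak at the transcript end. The TASOR KO list limited to its 264 highest-scoring peaks, also chosen after seeing the data, gave 10 genes. No paired analysis was possible because there was a single library of each genotype, which also means that none could be left out. Depth is unknown, so peaks too weak to be called cannot be told from absent ones.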
